A study of Mus musculus with 6 samples.

Results

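Expression of genes that serve oxidation reactions or vitamin C synthesis was followed in RNA-seq of livers with and without hepatocyte *Tcf7l2*. The genes are *Cyp2e1*, *Cyp1a2*, *Ahr*, *Gulo*, *Aldh3a2* and *Aldh1a1*, chosen by name as genes of pericentral oxidation and of ascorbate synthesis. These 6 genes are 6 of the 23282 genes in the count files, and all 6 are among the 14076 that passed the filter on low counts. The 2 genotypes were wild type (WT) and *Tcf7l2* liver-specific knockout (KO), with 3 libraries each, from C57BL/6 mice (C57BL/6N in the study's methods) aged 12 weeks that were fasted for 24 h and then refed normal chow for 24 h. By the study's methods the mice were male, KO mice carried floxed *Tcf7l2* alleles and Cre driven by the promoter of albumin, a hepatocyte gene, and WT mice were littermates with the floxed alleles but no Cre. The study describes this loss as selective for hepatocytes, and which other liver cells keep the gene was not examined here. Libraries are named by the numbers in their labels, WT 7-2, 8-1 and 8-3 and KO 7-2, 7-3 and 8-3. The labels do not say that each library is a separate animal, although the study describes its groups in mice, so p-values measure the spread between these libraries.

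In the liver lobule, hepatocytes near the central vein express a program that Wnt ligands from central vein endothelium maintain through β-catenin and TCF/LEF factors, of which TCF7L2 is one. That program includes glutamine synthesis and much of the cytochrome P450 oxidation of drugs, alcohol and other small molecules. CYP2E1 oxidises ethanol, acetone and paracetamol. CYP1A2 oxidises caffeine and aromatic amines, and its gene is a classical target of AHR, the ligand-activated receptor for dioxins and for indoles from tryptophan and diet. GULO carries out the last step of ascorbate (vitamin C) synthesis, which mice have and humans have lost. ALDH3A2 oxidises long-chain fatty aldehydes, including the one released when sphingolipids are broken down, and ALDH1A1 is a cytosolic enzyme that oxidises retinaldehyde and acetaldehyde.

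The sequences just upstream of the start sites are shown because the members differ in letters that TCF/LEF factors and AHR are known to favour. RefSeq promoters of GRCm38.p6, from 250 bases before to 50 bases after the start, matched 4 of the 6 genes, all but *Gulo* and *Ahr*. Capitals mark a TCF/LEF heptamer, CTTTG followed by A or T at each of the next 2 positions, on either strand, or the AHR core GCGTG on either strand. *Cyp2e1* is read from chr7:140763569-140763868 on the plus strand, *Cyp1a2* from chr9:57683606-57683905 on the minus strand, *Aldh3a2* from chr11:61267137-61267436 on the minus strand, and *Aldh1a1*, at the first of its 2 listed starts, from chr19:20492333-20492632 on the plus strand.
*Cyp2e1*: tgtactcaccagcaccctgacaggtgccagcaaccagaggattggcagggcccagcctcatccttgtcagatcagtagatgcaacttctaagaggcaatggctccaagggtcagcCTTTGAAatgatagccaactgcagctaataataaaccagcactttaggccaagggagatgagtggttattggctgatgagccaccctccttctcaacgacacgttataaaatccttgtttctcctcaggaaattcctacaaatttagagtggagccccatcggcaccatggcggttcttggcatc
*Cyp1a2*: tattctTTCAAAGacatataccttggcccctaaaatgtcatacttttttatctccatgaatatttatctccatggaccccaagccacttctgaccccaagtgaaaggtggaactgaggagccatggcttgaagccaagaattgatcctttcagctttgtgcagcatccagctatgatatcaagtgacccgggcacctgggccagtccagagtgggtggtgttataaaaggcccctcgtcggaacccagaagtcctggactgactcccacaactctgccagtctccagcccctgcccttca
*Aldh3a2*: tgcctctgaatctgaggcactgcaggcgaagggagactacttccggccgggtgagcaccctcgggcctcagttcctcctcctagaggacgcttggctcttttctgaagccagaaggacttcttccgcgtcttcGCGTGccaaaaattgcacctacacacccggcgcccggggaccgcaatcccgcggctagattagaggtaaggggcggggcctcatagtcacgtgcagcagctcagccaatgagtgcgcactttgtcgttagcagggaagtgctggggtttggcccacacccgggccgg
*Aldh1a1*: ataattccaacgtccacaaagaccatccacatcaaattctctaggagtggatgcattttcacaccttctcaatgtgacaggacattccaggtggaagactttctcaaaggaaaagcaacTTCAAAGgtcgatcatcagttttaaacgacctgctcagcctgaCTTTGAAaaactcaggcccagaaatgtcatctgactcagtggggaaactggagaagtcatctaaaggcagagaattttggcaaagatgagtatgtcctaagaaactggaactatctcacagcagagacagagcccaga

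The *Cyp2e1* promoter held 1 heptamer, with its first base at −135 from the start. *Cyp1a2* held 1 on the opposite strand at −244. *Aldh1a1* held 2 at its first start, at −131 on the opposite strand and at −88 on its own strand, and none at its second. *Aldh3a2* held 0 heptamers and 1 AHR core, at −117, whereas no AHR core was in the *Cyp1a2* window. The start used for *Aldh3a2*, at 61267186, and its whole window lie inside the listed span of the gene (61223417 to 61267528). Sequence upstream of that outer end was therefore not searched. The heptamer occurred in 16.9% of all 32851 promoters of this length and the AHR core in 32.4%. *Cyp2e1* and *Cyp1a2* also held a TATAAA box, at −31 and −29, which 13.6% of promoters did. A match in these letters is a description of the window and not a binding site, and sequence outside the window was not searched.

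The libraries held 60619938 to 133384586 counts. Major urinary protein (*Mup*) genes took 31.7% to 54.3% of the counts in WT and 18.5% to 28.7% in KO, so counts were scaled by TMM factors, which set the bulk of genes equal between libraries. Levels are given as CPM on that scale. Over the tested genes the log2 fold changes had a median of −0.017 with TMM and of 0.61 with library sizes alone. *Tcf7l2* itself, counted over the whole gene, stood at 4.88, 6.13 and 6.85 CPM in WT 7-2, 8-1 and 8-3 and at 3.31, 2.74 and 3.33 in KO 7-2, 7-3 and 8-3. Every KO library was below every WT library, with a log2 fold change of −0.93 (SE 0.19), but it missed the threshold of 0.05 in edgeR's quasi-likelihood test (adjusted p=0.0856). Summed markers of hepatocytes reached 82770.6 to 89044 CPM in WT and 69725 to 97532 in KO, and 0 of 12 passed edgeR's test in either direction. DESeq2 called 1 of them lower, *Fgb*, a fibrinogen chain (log2 fold change −0.88, adjusted p=0.233 from edgeR and 0.0107 from DESeq2). No marker list had a gene at 0 in all libraries.

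Of the 6 genes, 3 fell in KO liver by edgeR's quasi-likelihood test (*Cyp2e1*, *Gulo* and *Aldh3a2*) and 0 rose. Over all 14076 tested genes, 0.377% were called lower and 0.071% higher. All 6 log2 fold changes were negative, with a median of −1.25. In 5 genes the KO libraries all lay below the WT libraries, as they did in 9.08% of all tested genes, and in *Aldh1a1* the groups overlapped. At an unadjusted p under 0.05 from edgeR the count lower was 5, where 951 of all 14076 tested genes were lower and 943 higher. The later counts at this threshold have the same background. DESeq2 called 4, adding *Cyp1a2*, where DESeq2 called 1.78% of the genes it tested lower. In whole liver RNA, fewer cells that express a gene and less RNA per cell cannot be told apart.

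**Figure D1:**
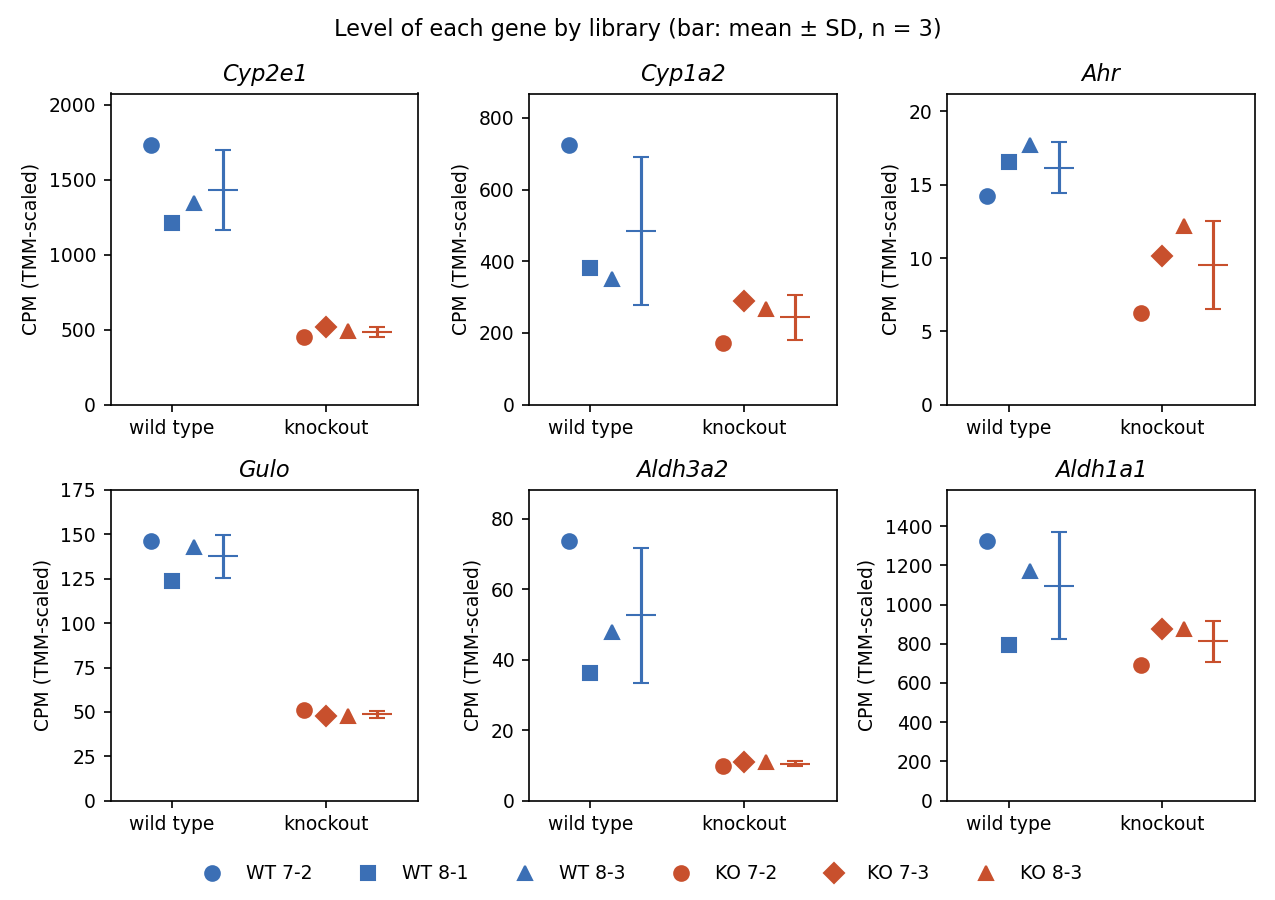
Level of each of the 6 genes in each library in TMM-scaled CPM (each vertical axis starts at 0), with blue symbols for WT, orange for KO, one symbol shape per label number, and bars for mean ± SD (n = 3). KO libraries lie below all WT libraries for 5 genes, and the groups overlap for *Aldh1a1*, where WT 8-1 at 796 CPM is below KO 7-3 and KO 8-3.

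The cytochrome P450 genes come first. *Cyp2e1* (NM_021282; chr7:140763819-140774990, plus strand of GRCm38.p6) stood at 1729.8, 1215 and 1345 CPM in WT 7-2, 8-1 and 8-3 and at 451, 515 and 494 CPM in KO 7-2, 7-3 and 8-3. The lowest WT library was 2.36 times the highest KO library, and the KO libraries lay close together, with a coefficient of variation of 6.68% against 18.7% in WT. The gene kept 34.0% of its WT mean (1429.9 ± 268 against 487 ± 32.5 CPM, SD, n = 3 each), a log2 fold change of −1.56 with a 95% interval from −2.02 to −1.09 (adjusted p=0.0131, edgeR's quasi-likelihood test). The call was lost without KO 7-2 (adjusted p=0.0901 from edgeR, log2 fold change −1.50) and without KO 8-3 (0.0542, −1.57), and with library sizes alone (0.0536, −0.98). These counts were deep, from 38209 to 114954 per library, so counting error is small beside the spread between libraries.

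*Cyp1a2* (NM_009993; chr9:57676937-57683655, minus strand) stood at 723, 382 and 350 CPM in WT and at 173, 289.7 and 267 CPM in KO, in the same library order. The groups did not overlap, but the lowest WT library was only 1.21 times the highest KO library, and WT 7-2 was 2.07 times the lowest WT library. The KO mean was 50.2% of the WT mean (243 ± 61.9 against 485 ± 207 CPM), with a log2 fold change of −0.995 and a 95% interval from −1.68 to −0.31. That difference did not pass edgeR's test after adjustment (adjusted p=0.209) and did pass DESeq2's (adjusted p=0.0174). Without WT 7-2 the log2 fold change was −0.59. Of the 50-base words of its transcript, 4.91% also occur in its neighbour *Cyp1a1*, so a small share of reads can fall on both genes.

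*Ahr* (NM_013464; chr12:35497979-35534989), the receptor gene, had 529 to 1385 counts per library. Its CPM were 14.2, 16.5 and 17.7 in WT 7-2, 8-1 and 8-3 and 6.25, 10.1 and 12.2 in KO 7-2, 7-3 and 8-3. The groups did not overlap, with the lowest WT library 1.17 times the highest KO library, and the spread lay mainly in KO, where KO 7-2 stood lowest. The KO mean was 58.9% of the WT mean (9.52 ± 3.01 against 16.2 ± 1.75 CPM) and the log2 fold change −0.76, with a 95% interval from −1.27 to −0.26. *Ahr* did not pass the test (adjusted p=0.199 by edgeR's quasi-likelihood test, 0.0528 from DESeq2). The value was −0.53 without KO 7-2 and −0.15 with library sizes alone.

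*Gulo* (NM_178747; chr14:65986786-66009254) had the most even levels of the 6 genes. It stood at 146, 124 and 143 CPM in WT and at 51.1, 47.5 and 47.5 CPM in KO. No KO library came near a WT library, the lowest WT level being 2.42 times the highest KO level, and the coefficients of variation were 8.77% in WT and 4.23% in KO. *Gulo* fell to 35.4% of its WT mean (48.7 ± 2.06 against 138 ± 12.1 CPM), a log2 fold change of −1.50 with a 95% interval from −1.84 to −1.16 (adjusted p=0.00285 by edgeR's quasi-likelihood test). It remained past the threshold without any one library, with log2 fold changes from −1.56 to −1.45, and missed it with library sizes alone (−0.89, adjusted p=0.0525).

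*Aldh3a2* (NM_007437; chr11:61223417-61267528, minus strand) showed the largest fold difference of the 6 genes. Its levels were 73.5, 36.3 and 47.7 CPM in WT and 9.77, 10.9 and 10.97 CPM in KO. The WT libraries differed among themselves, with WT 7-2 highest and a coefficient of variation of 36.3%, while the KO libraries were nearly equal (6.36%), and even the lowest WT library was 3.31 times the highest KO library. The KO mean was 20.1% of the WT mean (10.5 ± 0.671 against 52.5 ± 19.1 CPM), and *Aldh3a2* fell by 2.32 on the log2 scale (95% interval −2.86 to −1.77, adjusted p=0.00325 by edgeR's quasi-likelihood test). The call held in all 16 alternatives run, the highest adjusted p being 0.0233. Only 69 of the tested genes, 0.49%, had a lower log2 fold change.

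*Aldh1a1* (NM_013467; chr19:20492583-20643463, plus strand) was the member whose groups overlapped. It stood at 1322, 796 and 1172 CPM in WT and at 693, 874 and 873 CPM in KO. WT 8-1 lay below 2 of the KO libraries, and KO 7-2 was the lowest of all. The KO mean was 74.2% of the WT mean (813 ± 104 against 1097 ± 271 CPM), a log2 fold change of −0.43 whose 95% interval ran from −0.95 to 0.088 (adjusted p=0.451, edgeR's quasi-likelihood test). The data therefore do not settle whether *Aldh1a1* differed, and the interval includes both no difference and a decrease larger than that of *Ahr*. The value was −0.27 without WT 7-2 and −0.61 without WT 8-1. With library sizes alone the sign turned, to 0.13, which is −0.48 relative to the median of all genes on that scale.

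For single genes, a two-sided exact permutation test over the libraries gave p=0.1 for each of the 5 genes without overlap, the smallest that 3 libraries against 3 allow, and p=0.3 for *Aldh1a1*. All 6 genes had a negative difference both among the libraries whose label starts with 7 (1 WT, 2 KO) and among those that start with 8 (2 WT, 1 KO). What that leading number stands for is not given. For *Gulo* the log2 difference was −1.57 among the former and −1.48 among the latter, and for *Cyp1a2* it was −1.69 and −0.45. *Aldh3a2* had −2.83 and −1.92, *Cyp2e1* −1.84 and −1.37, *Ahr* −0.84 and −0.49, and *Aldh1a1* −0.76 and −0.15. The difference was larger among the libraries that start with 7 in all 6 genes, on 3 libraries each, and was not tested.

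The libraries at the ends recurred. WT 7-2 was the highest WT library in 5 of the 6 genes, all but *Ahr*, and in 33.8% of all tested genes. KO 7-2 was the lowest KO library in 5 of the 6, all but *Gulo*, and in 30.4% of all tested genes. WT 7-2 also had the lowest *Mup* share of the WT libraries (31.7%) and KO 7-2 the lowest of the KO libraries (18.5%), and the part of this in the result was not tested. Across the 6 libraries the profiles of *Cyp2e1* and *Gulo* were the most alike of the 15 pairs of members, with a root mean square distance of 0.14 between their mean-centred log2 CPM, and those of *Aldh3a2* and *Aldh1a1* the least alike, at 0.93.

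**Figure D2:**
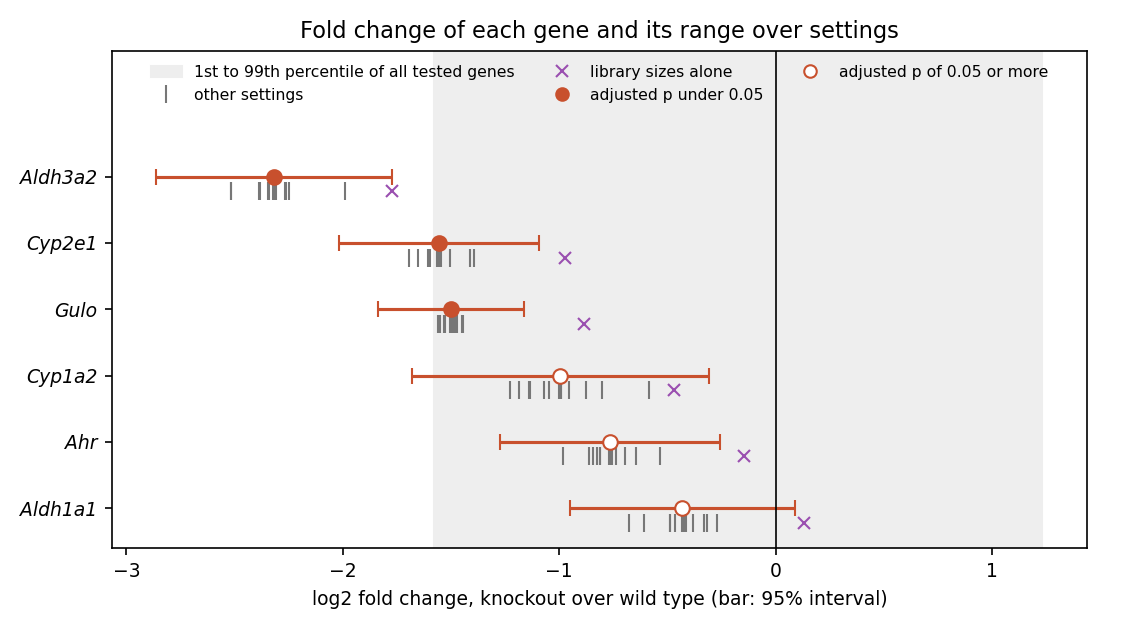
Log2 fold change of KO over WT for each gene (circle, filled where the adjusted p was under 0.05) with its 95% interval, the values under the other settings (ticks) and with library sizes alone (cross), over a grey band from the 1st to the 99th percentile of all tested genes (−1.58 to 1.23). *Aldh3a2* lies outside the band, *Cyp2e1* and *Gulo* lie near its lower edge, and only the interval of *Aldh1a1* reaches 0.

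Levels can be compared between genes only per length. Per kilobase of coding sequence in the GENCODE annotation, the WT mean was 967 CPM for *Cyp2e1*, 729.7 for *Aldh1a1*, 315 for *Cyp1a2*, 104 for *Gulo*, 36.2 for *Aldh3a2* and 6.69 for *Ahr*. In KO liver the corresponding levels were 329, 541, 158, 36.9, 7.26 and 3.94 CPM per kilobase. *Aldh1a1* therefore stood above *Cyp2e1* in KO and below it in WT on this scale. Per kilobase of whole transcript, *Cyp2e1* was first in both groups (679 and 231 CPM), and *Aldh1a1* (177 and 131) came below *Cyp1a2* (247) in WT and above it (124) in KO. The ranges of mean ± SD of *Aldh1a1* and *Cyp1a2* overlapped on that scale in WT (SD 43.7 and 105) and in KO (SD 16.8 and 31.5). Per coding kilobase, the ranges of mean ± SD of *Cyp2e1* (SD 181) and *Aldh1a1* (SD 180.4) overlapped in WT, and those of other neighbours did not in either group.

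The genes that work beside the members were then examined, list by list, leaving the members out. For ascorbate, 13 other genes of glucuronate and ascorbate synthesis, transport and recycling were tested, and 0 were called lower and 0 higher by edgeR (0 and 1 by DESeq2, and 0 and 1 with an unadjusted p under 0.05), with a median log2 fold change of 0.037. *Ugp2*, which makes the UDP-glucose from which glucuronate derives, stood at 184, 123 and 125 CPM in WT and 239.6, 268 and 246 in KO. Its groups did not overlap, in the opposite direction to *Gulo*, as in 10.2% of all tested genes (log2 fold change 0.80, adjusted p=0.137 from edgeR and 0.00427 from DESeq2). *Rgn*, the lactonase of the step before *Gulo*, stood at 296, 314 and 304 CPM in WT and 242, 256 and 228 in KO (−0.33, adjusted p=0.39, edgeR). *Slc2a1*, a glucose transporter that also carries oxidised vitamin C, had −0.50 (adjusted p=0.388, edgeR), and *Ugdh*, which makes UDP-glucuronate, 0.037.

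*Cyp2e1* and *Aldh1a1* also act on ethanol and acetaldehyde. Of 9 other genes of that route tested, 0 were called in either direction by edgeR, 0 by DESeq2 and 0 at an unadjusted p under 0.05, with log2 fold changes from −0.31 to 0.29. *Aldh2*, the mitochondrial enzyme that clears acetaldehyde, stood at 477, 546 and 463 CPM in WT and 396, 395 and 416 in KO, without overlap (−0.30, 95% interval −0.67 to 0.074). *Cat*, catalase, had 0.29 and *Adh1*, the main alcohol dehydrogenase, −0.30. Among these genes only *Cyp2e1* passed the test.

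For the receptor, 16 other genes of the AHR pathway and its targets were tested, and 0 were called by edgeR or by DESeq2 (0 lower and 3 higher at an unadjusted p under 0.05), with a median log2 fold change of 0.16. *Cyp1a1*, the most inducible AHR target, had 603 counts over the WT libraries and 525 over the KO libraries. It stood at 3.60, 2.46 and 2.32 CPM in WT and 1.54, 2.59 and 2.30 in KO, and its groups overlapped (−0.38, adjusted p=0.556, edgeR). *Arnt*, the partner with which AHR binds DNA, had 0.49 (adjusted p=0.253) and *Tiparp*, an AHR target that restrains the receptor, 0.63 (adjusted p=0.308), both by edgeR and both opposite in sign to *Ahr*. *Nqo1*, a quinone reductase and target, had −0.23. *Arnt2*, *Ahrr* and *Aldh3a1* were among the genes below the filter.

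Cytochrome P450 enzymes need electrons from a reductase and a haem group. Of 14 genes of electron supply and haem synthesis, 0 were called in either direction by edgeR or DESeq2 (1 lower and 1 higher at an unadjusted p under 0.05). *Alas1*, the rate-limiting enzyme of hepatic haem synthesis, stood at 173, 174 and 178 CPM in WT and 282, 229.9 and 227 in KO, without overlap (0.49, adjusted p=0.244, edgeR). *Alad*, the next enzyme, had −0.51 (adjusted p=0.352) and *Por*, the P450 reductase, 0.12.

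**Figure D3:**
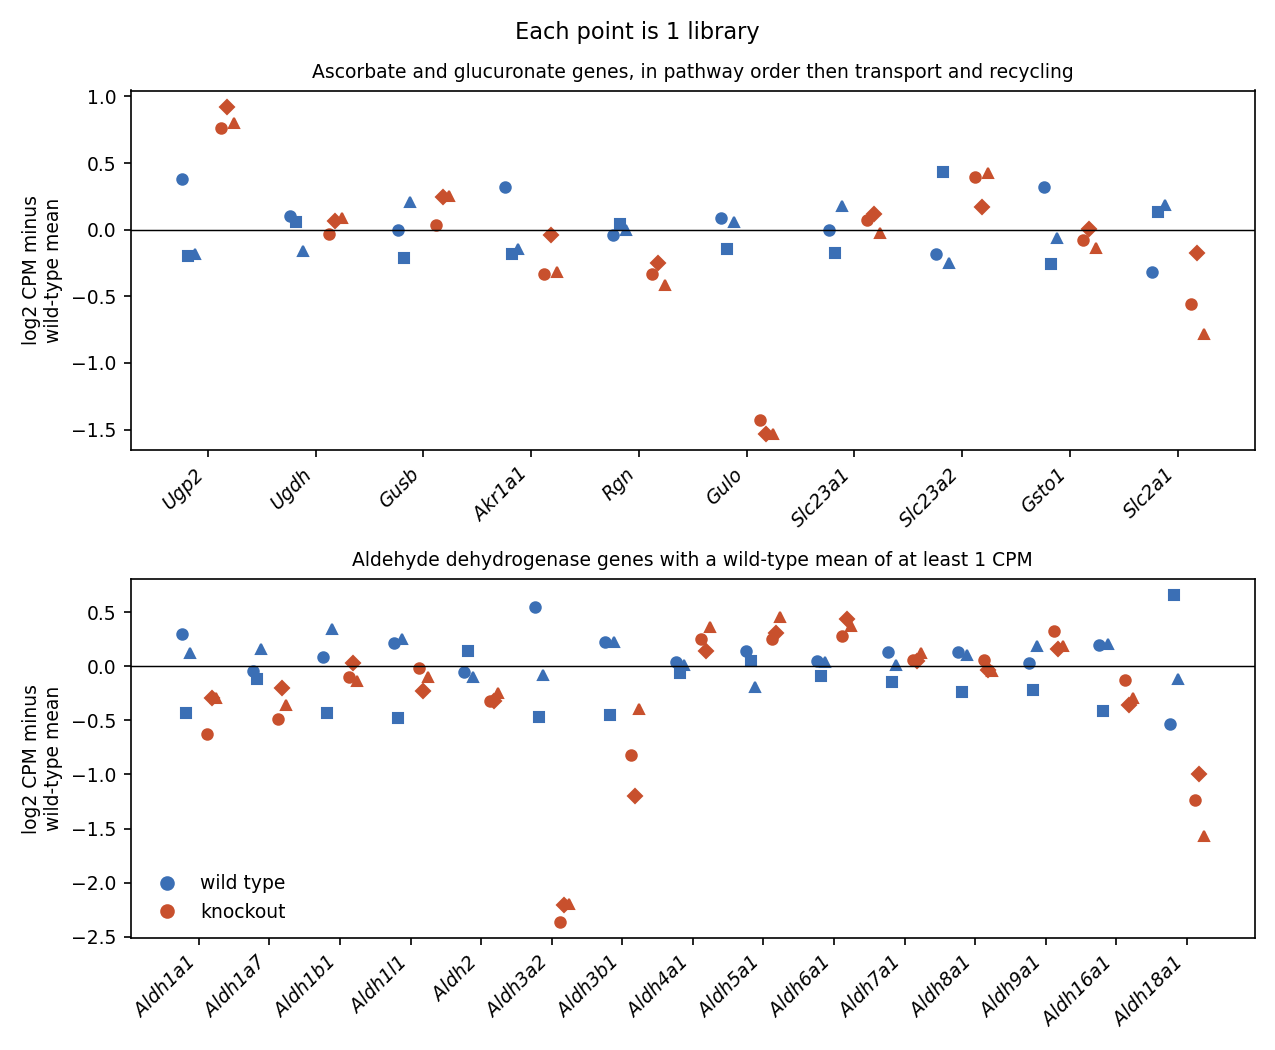
Log2 CPM of each library minus the WT mean of that gene, for ascorbate and glucuronate genes (top) and for aldehyde dehydrogenase genes with a WT mean of at least 1 CPM (bottom), blue for WT and orange for KO, with symbol shapes by label number. *Gulo* in the top panel and *Aldh3a2* in the bottom panel are the genes called lower, with all KO points more than 1 unit under the WT mean.

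The aldehyde dehydrogenase family held 15 other tested genes. None was called by edgeR in either direction (2 lower and 2 higher at an unadjusted p under 0.05), DESeq2 called 1 lower and 0 higher, and the median log2 fold change was −0.15. The one that DESeq2 called was *Aldh18a1*, which makes the proline precursor pyrroline-5-carboxylate, at 0.903, 2.07 and 1.21 CPM in WT and 0.555, 0.659 and 0.441 in KO (−1.34, adjusted p=0.167 from edgeR and 0.0281 from DESeq2). *Aldh3b1*, a relative of *Aldh3a2*, had −0.79 (adjusted p=0.342) and *Aldh6a1*, of valine breakdown, 0.36 (adjusted p=0.325), both by edgeR. *Aldh1a7*, a close copy of *Aldh1a1*, had −0.35 with a 95% interval from −0.72 to 0.026. Its groups did not overlap, at 233, 220 and 268 CPM in WT and 171, 208 and 187 in KO. Of the 50-base words of *Aldh1a1*, 2.45% also occur in *Aldh1a7*.

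Around *Aldh3a2*, 13 other genes of fatty aldehyde and sphingolipid breakdown were tested and 0 were called by edgeR or DESeq2 (0 lower and 2 higher at an unadjusted p under 0.05). *Sgpl1*, the lyase that releases a fatty aldehyde from sphingosine phosphate, stood at 15.1, 14.7 and 17.4 CPM in WT and 21.9, 21.5 and 21.7 in KO, above WT in every KO library (0.46, adjusted p=0.185, edgeR). *Far1*, which turns fatty acyl groups into alcohols, was expressed at 0.476 CPM on average in WT and 1.14 in KO (1.25, adjusted p=0.228, edgeR). *Agmo*, which cleaves ether lipids to fatty aldehydes, had 0.31 (adjusted p=0.384).

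Around *Aldh1a1*, 22 other genes of retinoid metabolism and response were tested and 0 were called by edgeR (2 lower and 2 higher at an unadjusted p under 0.05), with a median of −0.080. DESeq2 called 1 lower and 0 higher. *Dhrs9*, a retinol dehydrogenase, had −0.90 (adjusted p=0.347).

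Outside these routes, 23 other pericentral genes and Wnt targets had a median log2 fold change of −1.36, and 11 were called lower and 0 higher by edgeR (14 and 1 by DESeq2). Those called by edgeR were *Glul*, *Oat*, *Slc1a2*, *Rhbg*, *Lgr5*, *Tbx3*, *Sp5*, *Notum*, *Tcf7*, *Cyp2a5* and *Cyp2c37*. The list was not uniform, with 18 log2 fold changes negative and 5 positive. *Cyp2c29*, a P450 gene of the list, was the one that DESeq2 called higher (0.89, adjusted p=0.266 from edgeR and 0.0469 from DESeq2), and its groups overlapped. *Axin2*, not called by edgeR, stood at 1.63, 2.60 and 2.06 CPM in WT and 0.579, 0.277 and 0.731 in KO. Its log2 fold change was −1.98 (adjusted p=0.0654 from edgeR and 3.12e-05 from DESeq2). *Gstm3* had −0.86 (adjusted p=0.137 from edgeR and 0.00769 from DESeq2). *Lect2* had −0.83 (adjusted p=0.171 from edgeR and 0.0182 from DESeq2). The groups of these genes did not overlap. *Nkd1*, *Znrf3* and *Rnf43* had −0.049, −0.18 and 0.26 and were called by neither test. Of 18 periportal genes, which mark the opposite end of the lobule, 0 were called in either direction by edgeR and 0 lower and 3 higher by DESeq2, with a median of 0.23. *Gls2*, periportal glutaminase, had 0.74 (adjusted p=0.0877 from edgeR and 0.000167 from DESeq2). *Cyp2f2*, a periportal P450, also had 0.74 (adjusted p=0.162 from edgeR and 0.00377 from DESeq2). *Ctsc*, of the same list, went the other way (−0.56, adjusted p=0.189, edgeR). Every KO library was above every WT library in 5 periportal genes, *Gls2* and *Cyp2f2* among them, and below in 1, *Ctsc*. Over all tested genes the shares were 10.2% above and 9.08% below. Of the 18 periportal genes, 13 had a positive log2 fold change and 5 a negative one. The lists were chosen with results of these data known, and their counts are a description.

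**Figure D4:**
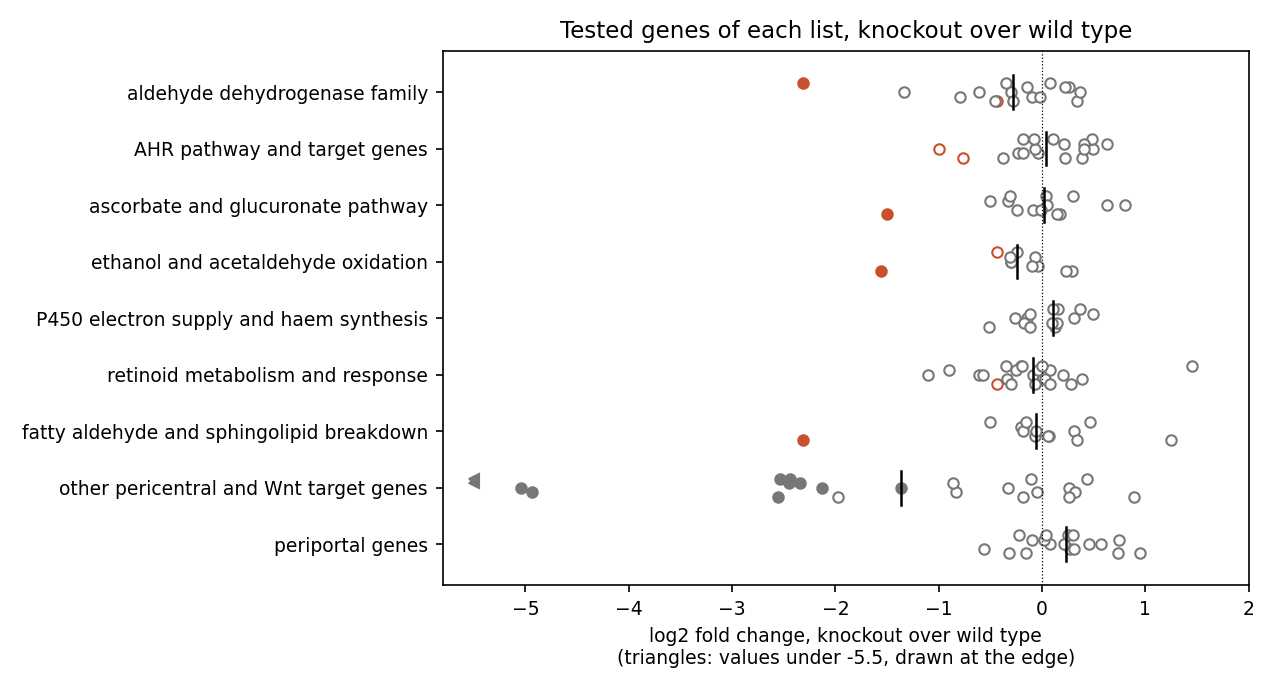
Log2 fold change of KO over WT for every tested gene of each list (circle, filled where the adjusted p was under 0.05, orange for the 6 genes, grey for the others, black line for the median of the list with the 6 genes included). In each of the 7 pathway lists at the top, filled circles, where present, are members only, and the other filled symbols belong to the pericentral and Wnt target list.

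Other cell types of the liver were compared by their markers. Stellate cell markers summed to 67.3 to 84.3 CPM in WT and to 109 to 111 in KO, with 10 of 13 genes positive and 0 called by edgeR (3 higher by DESeq2). Sinusoidal endothelial markers summed to 100.5 to 108 CPM in WT and to 122 to 129 in KO, with 13 of 13 positive and 0 called by edgeR or DESeq2. Kupffer cell and macrophage markers summed to 101 to 129 CPM in WT and to 98.97 to 106 in KO, with 10 of 12 negative and a median log2 fold change of −0.22. Cholangiocyte markers summed to 34.9 to 58.0 CPM in WT and 33.2 to 39.1 in KO, with 5 of 6 tested genes negative and a median of −0.46. Red cell markers summed to 359 to 647 CPM in WT and 345 to 411 in KO, with 4 of 5 negative, and lymphocyte markers to 1.66 to 2.43 and 1.75 to 2.34, with 2 of 3 tested genes negative. In these 4 lists edgeR and DESeq2 called 0 in either direction, and at an unadjusted p under 0.05 the counts were 2, 1, 0 and 0 lower and 0, 0, 1 and 0 higher, in the order given. For the endothelial and stellate lists these counts were 0 lower and 2 and 8 higher. Over all 14076 tested genes they were 951 lower and 943 higher. The part of these cell types in the differences of the 6 genes was not tested.

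The genes with the profiles nearest to each member, among those with a mean log2 CPM of at least 1, were sought over the 6 libraries. The members themselves were left out of this search, and *Cyp2e1* and *Gulo* were nearer to each other (0.138) than to any gene it found. *Slc25a21*, a mitochondrial oxodicarboxylate carrier, came first for both *Cyp2e1* (root mean square distance 0.14) and *Gulo* (0.155), and it had a log2 fold change of −1.41. For *Aldh3a2* the nearest were *Glul* (0.22), *Notum* (0.288) and *Npr2* (0.384). *Ahr* lay nearest to *Tmprss2*, *Cd36* and *Ung* (0.156 to 0.171), and *Cyp1a2* to *Setd4*, *Nab2* and *Map3k6* (0.241 to 0.258). *Aldh1a1* was nearest to *Dera* (0.0433), *Tpgs1* and *Zfp385a*. The rest were *Ifi27l2b* and *Cyp2c37* for *Cyp2e1*, and *Vnn1* and *Dynlt1b* for *Gulo*. These distances rest on 6 libraries of 2 groups, so any gene with a like difference between genotypes comes out near.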

How the data were processed

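The deposited values are raw counts per gene, which the authors made by counting unique and multiple alignments of reads from a directional kit, so near-identical genes can share reads. The submitters' processing notes list TopHat and mm10. Neither the version of TopHat nor the annotation is given in the sources used here. Library totals are 60619938 to 133384586, and each library was 1 replicate. No library was a copy of another (smallest chi-square per degree of freedom 188).

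KO was compared with WT in R 4.3.3 by the quasi-likelihood test of edgeR 4.0.16 (with limma 3.58.1), using TMM scaling and the default filterByExpr filter (10 and 15 counts), Benjamini-Hochberg adjusted over 14076 genes. The script was tested on simulated data. Alternatives were DESeq2 1.42.0, limma-voom, other scalings, quantile-normalised limma, no filter, each library left out and blocks on label numbers. Gene positions and promoters are from RefSeq, GRCm38.p6, and transcript lengths and shared words from GENCODE on GRCm39. Named genes are the members, all called genes of each list with up to 3 others of smallest p, and the 3 nearest profiles. *Nqo1*, *Ugdh*, *Cat*, *Adh1*, *Por*, *Cyp1a1*, *Aldh1a7*, *Cyp2c29*, *Nkd1*, *Znrf3* and *Rnf43* were added after their values were seen. The members and lists were chosen with earlier results of these data known. Some genes that the rule takes were left out of the text.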

Additional observations from a re-analysis of the deposited data

How the results depend on the processing

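Each of the 6 log2 fold changes was recomputed under 16 alternatives. *Aldh3a2* (−2.52 to −1.77) remained called in all of them, and *Ahr* (−0.98 to −0.15) in none. *Gulo* lost its call with library sizes alone (−0.89), as did *Cyp2e1* (−0.98), and *Cyp2e1* also lost it without KO 7-2 or KO 8-3 (−1.65 to −1.39 over libraries left out). *Cyp1a2* was called by DESeq2 only (−0.99, adjusted p=0.0174). *Aldh1a1* turned positive with library sizes alone (0.13) and was called in no setting. Library sizes alone left 1 of the 6 genes called, and shift the median of all genes by 0.61, so that the number called higher is 2936 and lower 88. The other causes were not tested.

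Over all genes, 53 were called lower and 10 higher. DESeq2 called 240 lower and 200 higher, limma-voom 44 lower and 6 higher, and no filter 73 lower and 23 higher. Leaving out 1 library gave 21 to 69 lower and 3 to 18 higher. The labels share only numbers, and same-numbered libraries did not deviate together (correlations 0.0079 and −0.0069). A replicate block on the leading number called 33 lower and 6 higher, and one on the whole number 34 lower and 15 higher. Neither block changed the call of a member. *Cyp2e1* was −1.61 with the leading-number block. The biological coefficient of variation was 23.9% with 3 libraries a group, and the effect of depth on these calls was not tested.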

Other observations

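Retinol dehydrogenase genes of the *Rdh* family stood apart in a single library. This set was chosen after its values were seen. *Rdh16*, which oxidises retinol and steroids, stood at 106 CPM in KO 7-2 and at 14.3 to 18.2 CPM in the other 5 libraries, 5.87 times the highest of them. *Rdh18-ps*, a pseudogene, stood at 72.4 CPM in KO 7-2, 4.44 times the highest other library, and *Rdh9* at 65.6 CPM, 4.04 times. *Rdh1* (36.1 CPM) and *Rdh19* (21.1 CPM) were 2.27 and 1.83 times the highest other library. *Rdh7* did not share this, with 353 CPM in KO 7-2 and 228 to 408 CPM in WT, nor did *Rdh5* (4.86 CPM). *BC089597*, examined with them, stood in KO 7-2 at 0.744 times the highest other library. *Rdh9* was lower in the remaining KO libraries, at 4.36 CPM in KO 7-3 and 2.99 in KO 8-3, against 13.2, 16.2 and 14.5 in WT. Of the 14076 tested genes, 27 exceeded 2 times the highest other library in KO 7-2. How much sequence these *Rdh* genes share was not measured. Multiple alignments were counted, so reads can be shared between related genes and their values may not be separate. None passed the test between genotypes (*Rdh16*, adjusted p=0.36 by edgeR's quasi-likelihood test). KO 7-2 is also the KO library in which 5 of the 6 oxidation and ascorbate genes were lowest.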
